A study of Mus musculus with 24 samples.

Results

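The 10 genes described here form the Wnt axis that sets up the pericentral zone of the liver lobule. They were picked by name for their role: 3 secreted factors of the central vein (Wnt2, Wnt9b and Rspo3), 5 target and feedback genes of the pathway (Axin2, Lgr5, Rnf43, Znrf3 and Tbx3) and 2 pericentral enzymes (Glul and Oat). All 10 were found among the 56205 gene rows of the count table, and all 10 were among the 14109 genes with enough counts to be tested. Poly(A) RNA had been sequenced from whole livers of C57BL/6J mice, 12 kept for 20 weeks on methionine-choline deficient (MCD) feed and 12 on a control diet. An MCD diet is a mouse model of fatty liver with inflammation and fibrosis. The study's methods describe a high-fat formulation and its results use another name for the diet (CDAHFD), and the labels' name is kept here. By the series design each diet held 6 male and 6 female animals, but no label gives the sex, age, litter or sequencing batch of a single library.

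Blood enters the lobule at the portal tract and leaves at the central vein. Endothelial cells of the central vein secrete Wnt ligands and the R-spondin Rspo3, which act on the hepatocytes next to them. Ligand binding stabilises beta-catenin, which acts with TCF factors to turn on target genes. R-spondins bind Lgr receptors and remove the ubiquitin ligases Rnf43 and Znrf3, which otherwise clear Frizzled receptors from the cell surface. Pericentral hepatocytes carry glutamine synthetase (Glul) and ornithine aminotransferase (Oat), which handle nitrogen that has escaped the periportal urea cycle.

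Of the 10 genes, Rnf43, Tbx3 and Oat fell in MCD livers, 0 rose and 7 were not called, where a call needed FDR ≤ 0.01 together with a log2 fold change (log2FC) beyond 0.5 in either direction. Their median log2FC was -0.50, against -0.10 over all genes tested. The share of all tested genes called lower was 19.1%, and the share called higher was 19.2%. Glul, the gene most often used to mark the pericentral rim, had a log2FC of -0.08 (SE 0.12), and its change did not pass the test. All folds are MCD over control from edgeR's quasi-likelihood test with Benjamini-Hochberg adjustment over all 14109 genes. Levels are in CPM, counts brought to a common library size after adjustment by trimmed mean of M values (TMM) factors.

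Total counts ran from 16388650 to 24915175 per library. TMM factors were 0.642 to 0.973 in control and 1.07 to 1.26 in MCD libraries, so the factors themselves separated the diets. When total counts alone were used instead, the median difference of all genes moved up by 0.36 on the log2 scale, 6.01% of genes were called lower and 32.2% higher. Control replicate 12 stood apart: its TMM factor was the lowest, and its median correlation with the other control libraries was 0.918, against at least 0.951 for every other library with its own diet. It was also the lowest control library for Rspo3, Axin2, Lgr5, Rnf43, Znrf3 and Tbx3, so values without it are given where they matter. None of the 15 hepatocyte and 18 endothelial markers was at 0 in any library, and whole liver holds both cell types. In whole tissue, fewer cells of a type and less RNA per cell cannot be told apart.

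Promoter sequence is shown for the pathway's general readout Axin2 and for the 2 enzymes, which differed in response. Each line is the 250 bases upstream of the RefSeq start, 5′ to 3′ on the gene's strand, in build GRCm38.p6. The windows are chr11:108920099-108920348 on the plus strand for Axin2, chr1:153899679-153899928 on the plus strand for Glul and chr7:132576399-132576648 on the minus strand for Oat. Capitals mark GC boxes, the Sp1-type motif GGGCGG or its reverse complement CCGCCC.
Axin2: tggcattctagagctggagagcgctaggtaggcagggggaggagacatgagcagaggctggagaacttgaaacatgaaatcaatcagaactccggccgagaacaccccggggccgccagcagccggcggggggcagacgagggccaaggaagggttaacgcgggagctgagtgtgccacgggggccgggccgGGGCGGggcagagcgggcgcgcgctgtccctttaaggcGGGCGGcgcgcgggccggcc
Glul: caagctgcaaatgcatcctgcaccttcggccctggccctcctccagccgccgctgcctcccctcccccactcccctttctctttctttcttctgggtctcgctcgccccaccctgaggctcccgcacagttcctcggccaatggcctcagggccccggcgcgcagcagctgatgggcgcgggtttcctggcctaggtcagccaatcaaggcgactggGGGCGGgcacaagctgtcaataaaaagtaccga
Oat: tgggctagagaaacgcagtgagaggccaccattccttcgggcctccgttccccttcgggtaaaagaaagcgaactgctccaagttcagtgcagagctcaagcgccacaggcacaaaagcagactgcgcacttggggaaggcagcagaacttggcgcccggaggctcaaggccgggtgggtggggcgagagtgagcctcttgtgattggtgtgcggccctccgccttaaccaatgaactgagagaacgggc

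Axin2 held 2 GC boxes, Glul 1 and Oat 0, while 32.7% of 32851 RefSeq windows of the same length held at least 1. GC content was 69.2% for Axin2 and 64.8% for Glul, and all 3 windows were above the median of 52.4% over all windows. The core of the TCF motif, CTTTG or CAAAG on either strand, was in none of the 3 windows and in 48.6% of all windows. Of the 6 members with a RefSeq window, Wnt9b alone held that core, once. A match of these letters is a description of the window and does not show binding.

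The first question was whether the central vein signals changed. Wnt2 encodes a Wnt ligand of central vein and sinusoidal endothelial cells (Ensembl ENSMUSG00000010797, chr6:17988940-18030585, minus strand). Its level was 1.47, 3.23 and 4.72 CPM (lowest, median, highest) in the 12 control libraries and 2.07, 2.51 and 4.23 CPM in the 12 MCD libraries. The groups overlapped throughout, and the lowest library of all was a control. The log2FC of -0.29 (SE 0.16, 95% interval -0.63 to 0.05) did not pass the test (FDR = 0.127).

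Wnt9b, the other Wnt ligand of the central vein (ENSMUSG00000018486, chr11:103727364-103749821, minus strand), was the scarcest member. Control libraries held 0.738, 1.28 and 2.57 CPM and MCD libraries 0.222, 0.928 and 1.74 CPM. In 4 MCD livers it lay below every control, but most libraries overlapped. These levels rest on 12 to 46 counts per control library and 6 to 43 per MCD library, and the interval of the log2FC was wide, from -1.05 to 0.04 around -0.50 (SE 0.27, FDR = 0.101).

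Rspo3, the R-spondin that raises Wnt signalling in pericentral hepatocytes (ENSMUSG00000019880, chr10:29452416-29535867, minus strand), gave 0.530, 3.35 and 5.02 CPM in control and 1.32, 2.23 and 3.19 CPM in MCD livers. All 12 MCD libraries lay below the control median, yet the lowest value of all, from 7 counts, was control replicate 12. The log2FC was -0.50 (SE 0.21, FDR = 0.0406), outside the call limit. Without control replicate 12 it was -0.57 (SE 0.16, FDR = 0.0023) and Rspo3 was called lower, so 1 library decides this call in the TMM fit. With all libraries it was -0.36 (FDR = 0.156) under upper-quartile factors and -0.16 (FDR = 0.571) under total counts alone. Exons of Gm48159 on the opposite strand overlap those of Rspo3, and although the study's methods name a stranded library kit, whether the counting of these libraries used strand is not stated.

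Endothelial markers were read beside the ligands, none of which was called. Of 18 markers, 12 fell, among them Ptprb (-1.22) and Kdr (-1.12), 0 rose and 6 were not called, with a median log2FC of -0.59. Under total-count scaling 7 were called lower and 1 higher, with a median of -0.24, with upper-quartile factors 8 were called lower, and without control replicate 12 the count was 9, as it was with DESeq2. Their summed level was 584 to 939 CPM in control and 487 to 642 CPM in MCD libraries. Relative to that sum within each library, Wnt2 differed by 0.21 on the log2 scale (MCD minus control), Wnt9b by -0.09 and Rspo3 by 0.06, or -0.14 for Rspo3 without control replicate 12. With the median marker in place of the sum these differences were 0.35, 0.04 and 0.19, so that of Wnt9b turned sign. The control SDs of the ratios to the sum were 0.53, 0.47 and 0.81, larger than each difference. Of 8 markers of pericentral endothelium, Ramp3 (log2FC 3.28), Fabp4 and Thbd rose, Lhx6 (-1.47) and Cdh13 fell, and 3 were not called. Ramp3 rested on 0 to 10 counts in control libraries, and Cdh13 (-0.52) was not called with upper-quartile factors, total counts alone or DESeq2. Of 6 markers of periportal endothelium, Adgrg6 rose (0.88), Dll4 (-0.96), Efnb2 (-0.55) and Sox17 (-0.62) fell and 2 were not called. Dll4 was called lower under those 3 alternatives and Efnb2 and Sox17 were not. The part of the endothelial markers in the ligand values was not tested.

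**Figure D1:**
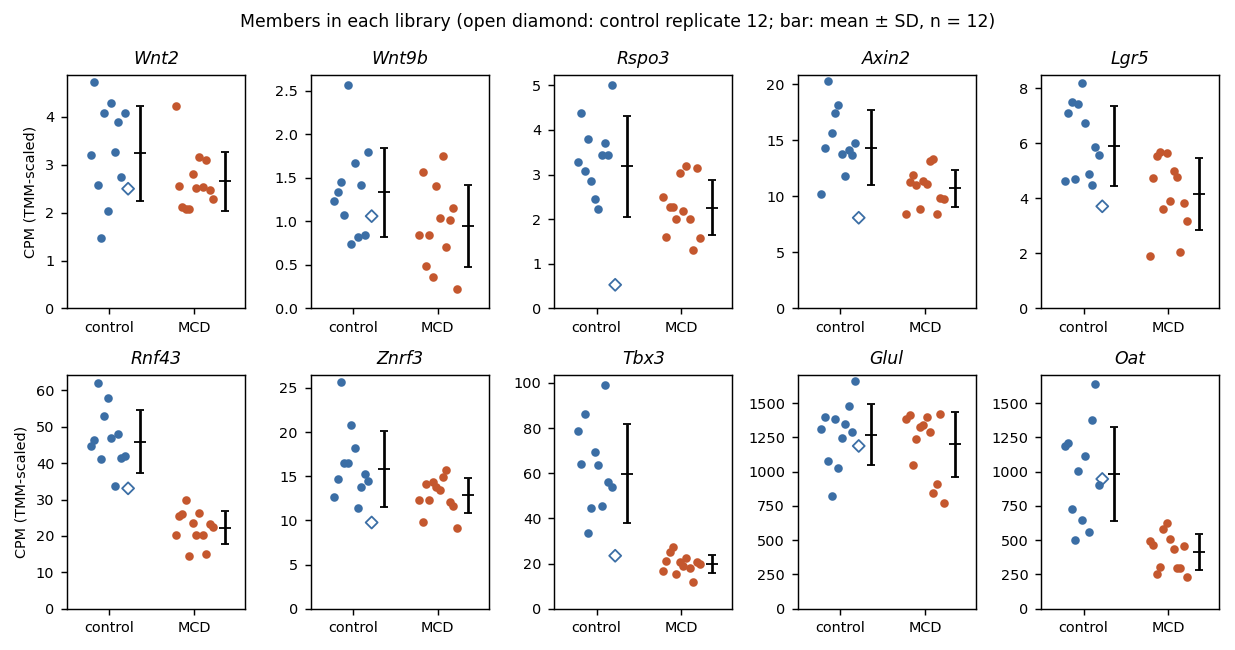
Level of each of the 10 genes in every library, in TMM-scaled CPM on axes that start at 0, with 1 point per library (control blue, MCD orange) and the mean ± SD of 12 libraries beside them. Rnf43 separates the diets completely (33.1 CPM is its lowest control and 30.0 its highest MCD library), Tbx3 and Oat nearly so, and Glul overlaps throughout. Control replicate 12 (open diamond) is the lowest control for 6 genes.

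The second question was whether pathway targets in hepatocytes changed. Axin2 encodes a scaffold that promotes beta-catenin breakdown and is induced by the pathway in most tissues (ENSMUSG00000000142, chr11:108920349-108950783, plus strand; antisense Gm11670 overlaps its exons). It reached 8.10, 14.2 and 20.3 CPM in control and 8.43, 11.1 and 13.3 CPM in MCD livers. All 12 MCD libraries lay below the control median, and control replicate 12 was below all of them. The log2FC of -0.42 (SE 0.12, FDR = 0.00296) passed the FDR limit but not the fold limit, and the fit without control replicate 12 gave -0.45. It was -0.28 (FDR = 0.0539) with upper-quartile factors and -0.09 (FDR = 0.644) with total counts alone, so passing the FDR limit depended on the scaling.

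Lgr5, the R-spondin receptor that marks the innermost pericentral hepatocytes (ENSMUSG00000020140, chr10:115450311-115587780, minus strand), showed 3.71, 5.70 and 8.18 CPM in control and 1.89, 4.31 and 5.70 CPM in MCD livers. All MCD libraries were below the control median and 4 were below every control, or 2 with total counts alone. At a log2FC of -0.51 (SE 0.17) its FDR of 0.0121 just missed the limit. The same test without control replicate 12 called Lgr5 lower (-0.52, FDR = 0.00866), as did limma-voom (-0.56, FDR = 0.0077) and edgeR with a sex-linked expression score as covariate (-0.51, FDR = 0.0031). DESeq2 did not call it (-0.45, FDR = 0.0207). Its fold was smaller still when edgeR scaled by upper quartile (-0.36, FDR = 0.0768) and smallest on unadjusted totals (-0.16, FDR = 0.497), neither called. Whether Lgr5 was called therefore depended on the scaling and the test.

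Rnf43, the ubiquitin ligase that removes Frizzled receptors (ENSMUSG00000034177, chr11:87662722-87735539, plus strand), fell. It measured 33.1, 45.5 and 61.9 CPM in control and 14.5, 22.8 and 30.0 CPM in MCD livers. Every MCD library was below every control, a separation in this direction that 4.88% of tested genes had, while 9.5% had every MCD library above every control. The log2FC was -1.04 (SE 0.12, FDR = 1.8e-08). With total counts alone Rnf43 was still called lower (-0.69), but then 2 MCD libraries lay below every control, or 10 of 12 once control replicate 12 was left out.

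Znrf3, its paralog with the same function (ENSMUSG00000041961, chr11:5276324-5444847, minus strand), differed less. Control livers had 9.76, 15.0 and 25.7 CPM and MCD livers 9.16, 12.9 and 15.7 CPM. The highest controls stood above all MCD livers, and the lower ranges coincided. The log2FC was -0.30 (SE 0.12, FDR = 0.0353), not called, and with total counts alone it was 0.04, of the opposite sign. Without control replicate 3 it was -0.18.

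Tbx3, a T-box repressor regulated by beta-catenin in liver (ENSMUSG00000018604, chr5:119670669-119684724, plus strand), had the largest fold of the 10. Its level was 23.5, 59.9 and 99.2 CPM in control and 11.96, 20.2 and 27.2 CPM in MCD livers, with a log2FC of -1.59 (SE 0.18, FDR = 1.9e-08). In 10 of 12 MCD livers it lay below every control, and without control replicate 12 this held for all 12. Tbx3 was still called lower with total counts alone (-1.24), but then 1 MCD liver lay below every control, or all 12 once control replicate 12 was left out. Control livers also varied more, with an SD of 21.8 CPM around a mean of 59.8 against 4.15 around 19.8 (n = 12 each). The antisense gene Tbx3os1 overlaps its exons, so its reads cannot be separated from those of Tbx3 without strand.

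The third question was whether the pericentral enzymes followed. Glul, which makes glutamine from glutamate and ammonia (ENSMUSG00000026473, chr1:153899944-153909723, plus strand; Mir8114 and antisense Teddm2 overlap its exons), stood at 822, 1302 and 1662 CPM in control and 772, 1309 and 1418 CPM in MCD livers. Both medians were nearly the same and 6 of 12 MCD livers lay below the control median. The log2FC was -0.08 (SE 0.12, 95% interval -0.32 to 0.16, FDR = 0.553). Its sign depended on scaling: it was 0.07 with upper-quartile factors and 0.28 with total counts alone (FDR = 0.056), and it also turned without MCD replicate 12 (0.0071).

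Oat, the mitochondrial enzyme that links ornithine to glutamate (ENSMUSG00000030934, chr7:132557478-132576398, minus strand), fell. It reached 499, 974 and 1636 CPM in control and 234, 448 and 625 CPM in MCD livers, a log2FC of -1.25 (SE 0.19, 95% interval -1.65 to -0.85, FDR = 3.6e-06). In 9 of 12 MCD livers it was below every control, and in 5 with total counts alone (log2FC -0.86). The ratio of Oat to Glul within a library does not depend on scaling: its mean log2 value was -0.43 ± 0.42 (SD, n = 12) in control and -1.58 ± 0.28 (SD, n = 12) in MCD livers. In 10 of 12 MCD livers that ratio lay below every control value. This ratio was chosen after the values were seen and is given without a test.

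**Figure D2:**
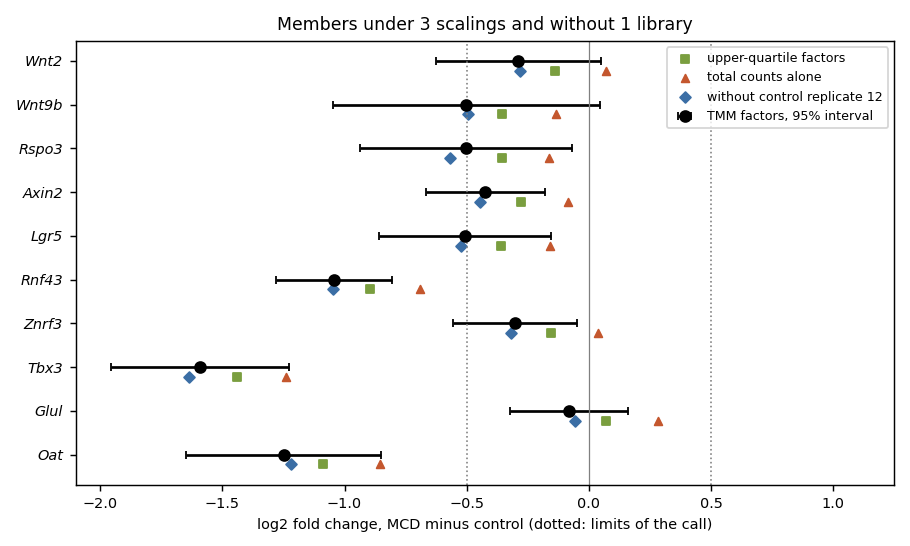
Log2FC (MCD over control) of the 10 genes, with the 95% interval of the TMM fit in black and the values under upper-quartile factors, total counts alone and without control replicate 12 beside it. Dotted lines mark the fold limits. Rnf43, Tbx3 and Oat stay beyond -0.5 in each, Glul lies on both sides of 0, and Wnt2 and Znrf3 cross 0 with total counts alone.

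Hepatocyte markers were read beside these genes. Of 15 markers, 7 fell, among them Ttr (-0.85) and Apoh (-0.82), Hpx rose (0.61) and 7 were not called, with a median log2FC of -0.49. On total counts alone, 0 of the 15 were called lower and 2 higher, with a median of -0.13, and with upper-quartile factors 4 were called lower. Their TMM-scaled sum was 112132 to 236322 CPM in control and 93591 to 132062 CPM in MCD libraries. Relative to that sum within each library, the differences (MCD minus control, log2) were -1.15 for Tbx3, -0.87 for Oat and -0.68 for Rnf43. The other hepatocyte members were closer to 0, with Lgr5 at -0.17, Axin2 at -0.03, Znrf3 at 0.10 and Glul at 0.28. Without control replicate 12, Lgr5 stood at -0.28, Axin2 at -0.16, Znrf3 at -0.02, Glul at 0.21, Rnf43 at -0.78, Oat at -0.93 and Tbx3 at -1.32. By these ratios the diets overlapped: 0 of 12 MCD libraries lay below every control for Tbx3, 5 for Oat and 2 for Rnf43. Without control replicate 12 these counts were 6, 5 and 8. The control SDs of these ratios ran from 0.47 for Glul to 0.80 for Tbx3, and the differences of Lgr5, Axin2, Znrf3 and Glul were smaller than their own control SD. Markers of other cells rose over the same libraries: the 13 mesenchymal markers summed to 244 to 693 CPM in control and 903 to 1573 CPM in MCD libraries, and the 9 cholangiocyte markers to 53.4 to 173 and 490 to 960 CPM. Of the mesenchymal markers 11 rose and 1 fell, of the cholangiocyte markers 7 rose and 0 fell, of 9 macrophage markers 5 rose and 4 fell, and of 6 proliferation markers 6 rose. Their part in the values of the 10 genes was not tested.

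Levels were compared between genes only per kilobase of exon. In control livers Oat (417 ± 145 CPM per kb, SD, n = 12) and Glul (382 ± 66.8) came first, and they did not differ beyond their spread. Tbx3 (9.03 ± 3.29) and Rnf43 (6.99 ± 1.32) followed, also overlapping, then Axin2 (2.61 ± 0.61), Znrf3 (2.002 ± 0.54), Wnt2 (1.43 ± 0.44), Rspo3 (1.03 ± 0.37), Lgr5 (0.575 ± 0.14) and Wnt9b (0.295 ± 0.11). From Tbx3 downwards the ranges of neighbours overlapped, except those of Rnf43 and Axin2. In MCD livers Glul (361 ± 72.1) came before Oat (175 ± 55.8), and Rnf43 (3.40 ± 0.70) before Tbx3 (2.996 ± 0.63), with the remaining order as in control and overlapping ranges for Glul with Oat and for each pair of neighbours from Rnf43 down.

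The wider Wnt pathway was read from 81 other genes listed by role, of which 51 had enough counts to be tested and 30 did not. Of the 51, 13 rose, 12 fell and 26 were not called. Of those that rose, 7 (Wnt7b, Wnt11, Fzd2, Nkd2, Sfrp1, Sfrp5 and Shisa2) reached the count limit of the filter in all 12 MCD libraries but in at most 5 control libraries, so they were tested because of their MCD level and the number of genes that rose is no evidence about the lists. With total counts alone, 3 of the 51 were called lower, so calls for lower expression in these lists depend on the scaling. The share of all tested genes called lower went from 19.1% to 6.01% under the same change.

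Among other Wnt ligands, R-spondins and their secretion factors, 5 of the 8 tested genes of 22 listed rose and 0 fell. DESeq2, which gave 14 of them an FDR, called 7 higher and Wnt2b lower (log2FC -1.45, FDR = 4.1e-06), a ligand with 7 to 31 counts per control library and 3 to 13 per MCD library that the filter had removed. Wnt7b, an epithelial ligand, rose most (3.90, SE 0.40, FDR = 5.0e-09), from 0 to 6 counts per control library to 14 to 118 per MCD library. Wnt11 (1.61, from 0 to 15 counts per control library), the non-canonical ligand Wnt5a (1.54), the Wnt cargo receptor Wls (1.45) and Wnt4 (1.31) also rose. Wls went from 5.95 ± 1.86 to 16.4 ± 3.44 CPM (SD, n = 12 each), without overlap between the diets. Antisense genes overlap Wnt7b, Wnt5a and Wnt11.

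Among receptors and co-receptors, 2 of the 12 tested genes of 17 listed rose and 6 fell. Fzd4 fell from 86.8 ± 21.6 to 37.4 ± 7.70 CPM (SD, n = 12 each; log2FC -1.21, FDR = 8.5e-09), with no overlap. Fzd8 (-0.96), Fzd5 (-0.84), the co-receptors Lrp6 (-0.76) and Lrp5 (-0.50) and the R-spondin receptor Lgr4 (-0.56) also fell. Of these 6, Fzd4 and Fzd8 were still called lower with total counts alone. Lgr4 and Lrp5 were also not called with upper-quartile factors or DESeq2, and Lrp5 was not called without control replicate 12, where its log2FC was just inside the fold limit. Fzd2 rose (2.40) from at most 11 counts per control library, and so did Ror1 (0.53).

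Inhibitors that act outside the cell or at the membrane gave 6 genes that rose and 1 that fell among the 9 tested of 19 listed. Frzb (2.04), a secreted antagonist, and the Dkk family member Dkk3 (2.45) rose. Nkd2, which binds Dishevelled, had a log2FC of 3.29 from at most 8 counts per control library. The secreted antagonists Sfrp5 (2.76, at most 12 counts per control library) and Sfrp1 (1.65, at most 18) and Shisa2 (1.91, at most 13) rose from similarly few. Dkk3 went from 2.85 ± 1.36 to 15.8 ± 4.27 CPM (SD, n = 12 each). Kremen1, a Dkk receptor, fell (-0.61), and was not called with upper-quartile factors (-0.47) or total counts alone (-0.27). The mesenchymal and cholangiocyte marker sums, higher in MCD libraries by 1.51 and 2.88 on the log2 scale, moved with these ligands and inhibitors, and their part in those values was not tested. The inhibitors that are themselves targets of the pathway in hepatocytes, Notum (-0.34, FDR = 0.0402) and Nkd1 (-0.20, FDR = 0.296), were not called.

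In the intracellular relay 0 of 22 tested genes rose and 5 fell, with a median of -0.31. Gsk3b, the kinase that marks beta-catenin for breakdown, fell most (-1.07, FDR = 1.3e-08) and was still called with total counts alone. Tnks and Bcl9l (both -0.65), Apc (-0.60) and Dvl3 (-0.52) fell in the TMM fit and were not called with total counts alone. Ctnnb1, which encodes beta-catenin itself, stood at 202 ± 26.7 CPM in control and 207 ± 13.6 CPM in MCD livers (log2FC 0.04, SE 0.08, FDR = 0.687). With total counts alone, which raise the log2FC of all genes by a median of 0.36, 1 relay gene was called lower and 2 higher (Dvl2, 0.55, and Pygo2, 0.64), against 32.2% of all genes called higher. The median of the relay list was 0.03 with that scaling. The target gene Sp5 had a log2FC of -0.57 and an FDR of 0.0157, outside the limit.

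**Figure D3:**
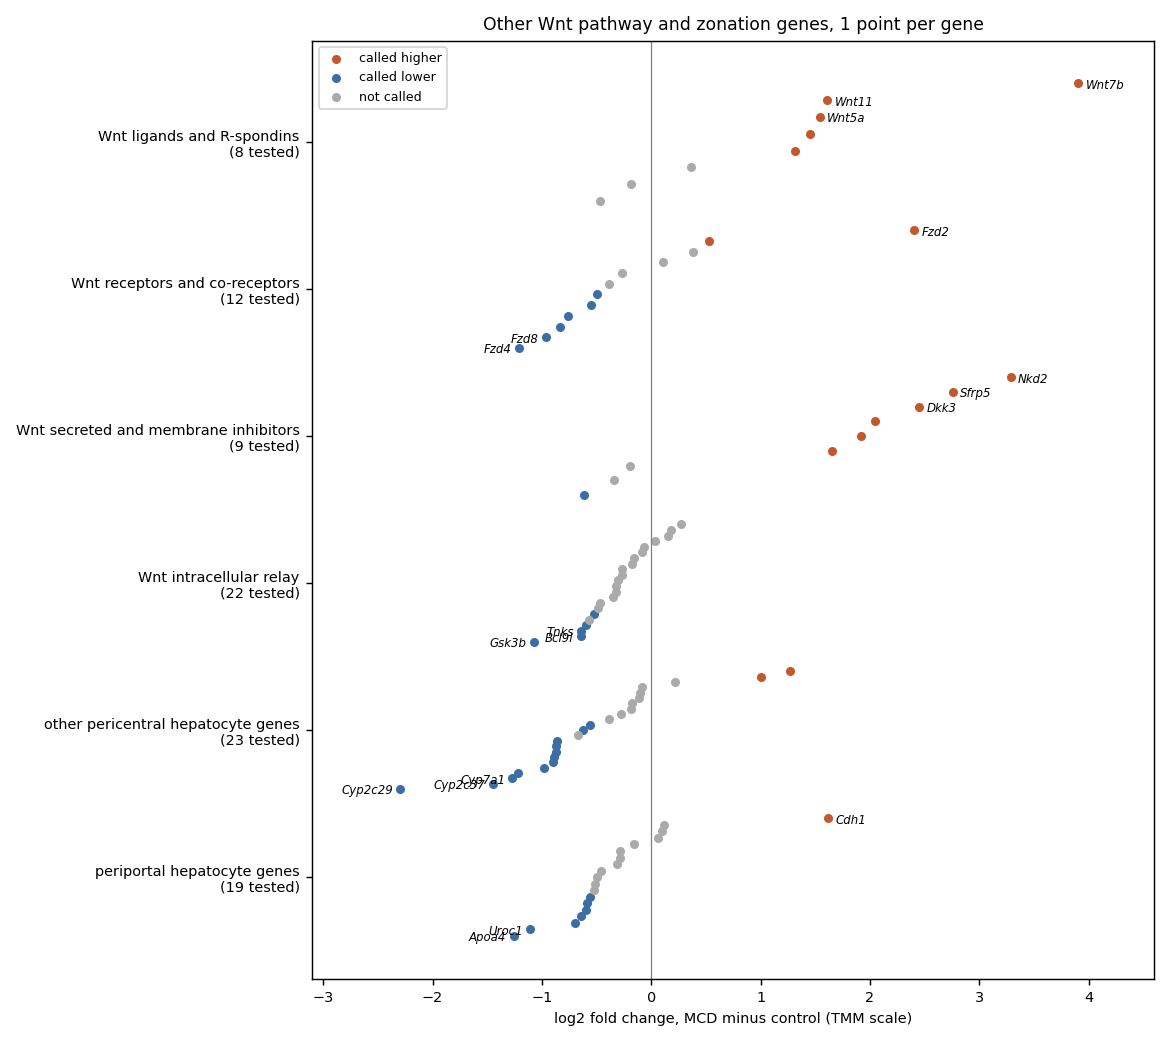
Log2FC (MCD over control, TMM scale) of every tested gene in 4 lists of other Wnt pathway genes and in 2 lists of zonated hepatocyte genes, 1 point per gene, coloured by call, with the genes of largest absolute fold in each list named. Called ligands lie to the right of 0 and called relay genes to the left, and called receptors and inhibitors lie on both sides.

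Other hepatocyte genes, listed by zone, were read beside the 10 genes, although whole-liver counts hold no position in the lobule. Of 23 other pericentral genes, 12 fell, 2 rose and 9 were not called, with a median log2FC of -0.63. Cyp2c29 (-2.29) and Cyp2c37 (-1.45), drug-metabolising cytochromes of a family of close paralogs whose reads may be split between copies, fell most. Cyp7a1, the rate-limiting enzyme of bile acid synthesis (-1.27), and the calcium-binding protein gene Rgn (-1.22) also fell. The ammonium transporter Rhbg (1.27) and the dicarboxylate transporter Slc13a3 (1.01) rose. The classical pericentral cytochromes Cyp2e1 (-0.19, FDR = 0.267) and Cyp1a2 (-0.18, FDR = 0.496) were not called.

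Of 19 periportal genes, 7 fell, 1 rose and 11 were not called, with a median of -0.49. Apoa4 (-1.26), Uroc1 of histidine breakdown (-1.11), the glutaminase Gls2 (-0.70) and the urea cycle enzyme Otc (-0.64) fell, and Cdh1, which cholangiocytes also express, rose (1.62). With total counts alone, 6 of the pericentral and 2 of the periportal genes were called lower, and Gls2 and Otc were not among them. Of all tested genes, 6.01% were called lower with that scaling. Otc was also not called with upper-quartile factors (-0.49). No test compared the zones with each other.

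The last question was whether the members varied together among animals on the same diet. 4 relations along the order ligand, target and enzyme were computed in each diet, 8 in all, on log2 CPM of 12 libraries with two-sided permutation tests. Axin2 and Lgr5 varied together. Pearson's r was 0.796 in control (p = 0.00125, adjusted p = 0.0050, Spearman's rho 0.741, permutation p = 0.00828, adjusted p = 0.0331) and 0.834 in MCD livers (permutation p = 0.00051, adjusted p = 0.00408, rho 0.769, p = 0.00495, adjusted p = 0.0331). Without the 2 libraries farthest from the Axin2 median, r was 0.644 and 0.680 (permutation test, adjusted p = 0.171 for each), so neither relation passed the adjusted limit without those libraries. Without control replicate 12 the control value was 0.694 (permutation test, adjusted p = 0.0692). As a description, both genes also moved with a sex-linked expression score within control livers (r = 0.653 for Axin2 and 0.726 for Lgr5), and with that score taken out r was 0.619 (permutation test, adjusted p = 0.0879). In MCD livers with the score taken out, r was 0.828 (permutation test, adjusted p = 0.00888) and rho 0.713 (permutation test, adjusted p = 0.0946).

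The other 3 relations did not pass in either diet. Wnt2 and Axin2 gave r of -0.08 in control and -0.26 in MCD livers (rho -0.10 and 0.014), with permutation p of 0.804 and 0.433 and adjusted p of 0.903 and 0.655, and their rho had permutation p of 0.751 and 0.974 and adjusted p of 0.936 and 0.974. No relation of this ligand to Axin2 was detectable with 12 libraries per diet. Rspo3 and Axin2 gave 0.561 and 0.359 (rho 0.133 and 0.399), with permutation p of 0.0753 and 0.248 and adjusted p of 0.201 and 0.495. Their rho had permutation p of 0.683 and 0.202 and adjusted p of 0.936 and 0.539, and the control r was -0.21 without control replicate 12. Axin2 and Glul gave -0.22 and -0.04 (rho -0.19 and -0.08), with permutation p of 0.491 and 0.903 and adjusted p of 0.655 and 0.903, and their rho had permutation p of 0.559 and 0.819 and adjusted p of 0.936 for each. With the 2 libraries most distant in the first gene left out, these r were 0.30 and -0.15 for Wnt2 and Axin2, -0.26 and -0.08 for Rspo3 and Axin2, and -0.30 and -0.16 for Axin2 and Glul.

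**Figure D4:**
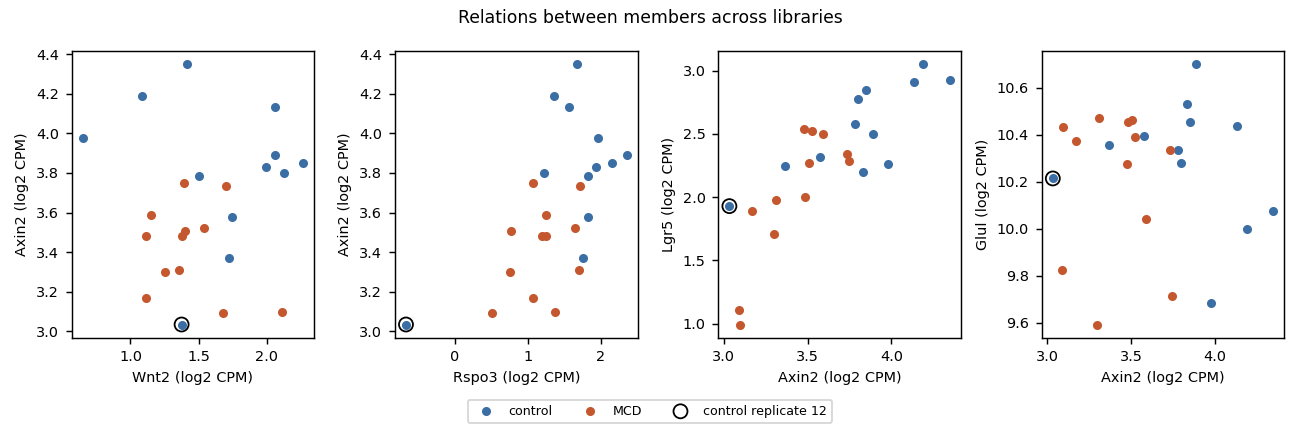
The 4 relations, log2 CPM of 1 gene against another, 1 point per library (control blue, MCD orange, control replicate 12 circled). Axin2 and Lgr5 rise together within both diets (r = 0.796 and 0.834), the Rspo3 and Axin2 panel is drawn out by control replicate 12, and Axin2 and Glul show no common slope.

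As a description across all 24 libraries, with each diet centred on its own mean, some of the 10 genes shared variation. Pearson's r was 0.76 for Axin2 with Znrf3, 0.75 for Axin2 with Lgr5, 0.71 for Rnf43 with both Axin2 and Lgr5, and 0.73 for Rnf43 with Tbx3. With the sex-linked score taken out, Lgr5 with Znrf3 went from 0.52 to 0.24 and Rnf43 with Znrf3 from 0.43 to 0.19. Glul and Oat reached 0.72 with each other, whereas Axin2 had -0.13 with Glul and -0.20 with Oat. Wnt2 had 0.55 and Wnt9b 0.52 with Glul. All pairs share libraries, TMM factors and depth, so no p is given.

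**Figure D5:**
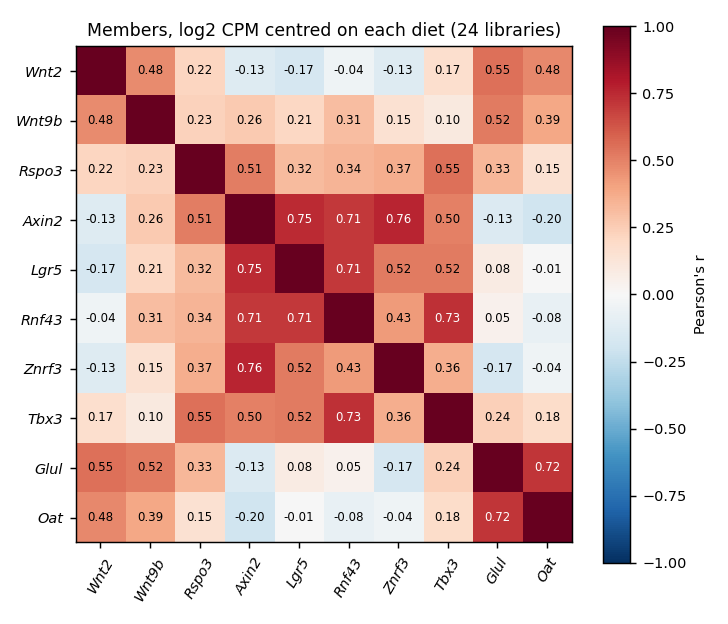
Pearson's r between the log2 CPM of each pair of the 10 genes over 24 libraries, each diet centred on its mean, coloured from -1 (blue) to 1 (red). All pairs among Axin2, Lgr5, Rnf43 and Znrf3 are positive, from 0.43 to 0.76, and Glul pairs with Oat (0.72) but not with Axin2 (-0.13).

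The genes most like each member were found by the same measure among non-members with a mean of at least 1 CPM. For Oat these were Lhpp (0.885), the glutamate transporter gene Slc1a2 (0.855) and Galm (0.727). Slc1a2 was also among the 3 most like Glul (0.742), with Uck1 (0.764) and Slc22a3 (0.741). For the target genes the leading gene was Chd2 for Axin2 (0.833), Sipa1l2 for Lgr5 (0.811), Hjurp for Rnf43 (0.805), Lpp for Znrf3 (0.894) and Thada for Tbx3 (0.867). The ligands gave Tmem41b for Wnt2 (0.748), Anxa13 for Wnt9b (0.690) and Ccdc186 for Rspo3 (0.907). The value for Rspo3 dropped to 0.755 without control replicate 12, while that of Oat with Lhpp rose to 0.928.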

How the data were processed

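Poly(A) RNA libraries of 24 whole livers were analysed, 12 per diet, grouped by the diet in the labels. The authors deposited a table of unnormalised counts, 1 row per Ensembl gene. The submitters' processing notes name bcl2fastq, STAR 2.7.3a and build mm10; the study's methods give a stranded mRNA library kit, and the exon quantification pipeline and PISCES for reads aligned to the human genome, without tying either to the mouse libraries, and whether counting used strand is not stated. Symbols and positions came from GENCODE M21 (GRCm38), and 0.0808% of counts lay in rows without a symbol. The members and lists were chosen with earlier results of these data known.

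Genes passing filterByExpr (14109) were compared by diet with edgeR 4.0.16 (TMM, glmQLFTest, no covariate) in R 4.3.3. The limits, FDR of 0.01 or less and absolute log2FC above 0.5, are those the study applied to human liver. Log2 CPM used a prior count of 2. SE was the absolute log2FC divided by the square root of F. The biological coefficient of variation was 26.8%. Correlations used 100000 permutations (Python 3.11.15, numpy 2.4.6); figures used matplotlib 3.10.9. Within each diet 0 library pairs were identical, and the lowest dispersion index between them was 11.4, where sampling noise gives about 1. The series design gives as many animals per diet as there are libraries. Fits were tested on simulated data.

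The text names all members, genes of the Wnt and zonation lists (the 4 with the largest absolute fold among those called in each, and others for their role), examples of the endothelial and hepatocyte markers, the other marker lists by counts and sums only and, for each member, the genes most correlated with it. Alternatives were relative log expression, upper-quartile and total-count scaling, no low-count filter, DESeq2 1.42.0, limma-voom (limma 3.58.1), a replicate block, a sex-linked score (Xist minus Y-linked genes, used only as a number), an FDR of 0.05 without a fold limit, and leaving out each library; the removal of control replicate 12 from correlations, ratios and total-count levels was chosen after seeing the data.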

Additional observations from a re-analysis of the deposited data

How the results depend on the processing

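Rnf43, Tbx3 and Oat were called lower under each of the 9 alternatives and without any single library. The 3 members called lower became 7 when FDR ≤ 0.05 was the only limit (Rspo3, Axin2, Lgr5 and Znrf3 joined) and ranged from 3 to 5 when 1 library was left out, with 5 without control replicate 12 (Rspo3 and Lgr5 joined). Of all 14109 genes tested, 5221 were lower when FDR ≤ 0.05 was the only limit, against 2688 in the main fit. Lgr5 was also called without control replicate 4 or 9, with the sex-linked score as covariate and with limma-voom. Other Wnt genes called lower were 12, and 5 with upper-quartile factors, 3 with total counts alone, 24 at the looser FDR and 9 to 14 with 1 library left out. Other pericentral genes called lower went from 12 to 6 with total counts alone (11 to 12 with 1 library left out). Periportal genes called lower went from 7 to 3 with upper-quartile factors and 2 with total counts alone (6 to 10 with 1 library left out). Over all tested genes, 1710 were called lower with upper-quartile factors and 848 with total counts alone.

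Signs turned for Glul (0.069 with upper-quartile factors, 0.28 with total counts alone, and -0.13 to 0.0071 with 1 library left out, the last without MCD replicate 12), Wnt2 (0.069 with total counts alone) and Znrf3 (0.036 with total counts alone). The cause was not tested, beyond the shift of all genes that the scaling itself makes.

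Of the correlations, Wnt2 with Axin2 in control livers turned to 0.25 with total counts alone, 0.030 with the score taken out and 0.30 without the 2 farthest libraries. Rspo3 with Axin2 turned to -0.26 in control and -0.080 in MCD livers without the 2 farthest libraries, and to -0.21 in control without control replicate 12. Axin2 with Glul turned to 0.37 in control and 0.19 in MCD livers with total counts alone, and to 0.20 in control with the score taken out. Axin2 with Lgr5 missed the limit at 0.619 in control with the score taken out, at 0.694 without control replicate 12, and at 0.644 in control and 0.680 in MCD livers without the 2 farthest libraries.

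The labels number libraries 1 to 12 in both diets. The numbers were not taken as a pairing: the deviations of libraries with the same number correlated over 0.1 in 8 of 12 pairs, not in all (lowest r -0.28, median 0.233, against -0.059 for other pairs), and 2 of 12 libraries correlated best with their own number. The fit with a replicate block called Lgr5 lower as well (-0.54, FDR = 0.0066, edgeR). Depth limits Wnt9b most, with as few as 6 counts in a library.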
